A study of Mus musculus with 8 samples.

Results

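The genes described here were 50 genes of DNA replication and S phase, chosen by name from the machinery that copies chromosomes. All 50 were found among the 23084 genes listed in the table. They fell into 8 classes by role: origin licensing (5 genes), the MCM2-7 helicase (6), helicase activation (8), replicative polymerases (9), the sliding clamp and its loader (6), single-strand binding and lagging-strand processing (5), nucleotide supply (4), and chromatin assembly and maintenance (7).

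Myeloid cells were sorted by flow cytometry from spleens of C57BL/6 mice aged 6-8 weeks, and total RNA was sequenced to ask how loss of lamin A/C, a protein of the nuclear lamina, affects myeloid differentiation. There were 8 samples in 4 groups of 2: CD11b+Ly6C+ (monocytic) and CD11b+Ly6G+ (granulocytic) cells from wt mice, and the same subsets from LmnaMyeKO mice. The sample titles and the study's account of its RNA sequencing do not say whether these mice carried tumors. LmnaMyeKO mice carried floxed Lmna and LysM-Cre, a recombinase inserted at Lyz2, so deletion was directed to cells with an active lysozyme gene; whether wt mice carried floxed Lmna was not stated, nor was the number of mice per sample. One measurement per gene was used, the mean normalized read count over all libraries as computed by the authors, here termed the signal. It merges both subsets and both genotypes, so no comparison of wt with LmnaMyeKO or of subset with subset was made, and no value has a replicate error.

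Chromosomes are copied once per cell cycle. In G1 phase the origin recognition complex, with Cdc6 and Cdt1, loads the ring-shaped MCM2-7 helicase onto DNA. In S phase the Cdc7-Dbf4 kinase, Cdc45 and GINS switch it on. Polymerase alpha-primase then lays primers, polymerases delta and epsilon extend the strands on the PCNA clamp, and chromatin is rebuilt behind the fork. Many of these genes are activated by E2F transcription factors when a cell leaves quiescence. Mature neutrophils and most circulating monocytes do not divide, whereas their precursors, which the spleen can also hold, do.

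To search these genes for promoter motifs, promoters of 250 bases before to 50 bases after each annotated start were read from RefSeq (build GRCm38.p6). Entries matched 41 of the 50 genes, with 50 windows because some genes have several starts. E2F words (TTTCCCGC, TTTGGCGC, TTTCGCGC or TTTGCCGC) were searched on both strands. The printed windows are a selection. Those of 4 MCM genes and of Rfc3, each with at least 2 matches, come first. A window of Dnmt1 also held 2 matches and is not printed. Pcna follows, the gene with the highest level per length and 1 of the 25 genes with no match. Capitals mark the E2F words, and each sequence reads 5′ to 3′ on the strand of its gene. Mcm3 is on the minus strand at chr1:20820263-20820562, Mcm5 on the plus strand at chr8:75109259-75109558, Mcm6 on the minus strand at chr1:128359656-128359955, Mcm7 on the minus strand at chr5:138171834-138172133, Rfc3 on the minus strand at chr5:151651159-151651458 and Pcna on the minus strand at chr2:132253131-132253430.
Mcm3: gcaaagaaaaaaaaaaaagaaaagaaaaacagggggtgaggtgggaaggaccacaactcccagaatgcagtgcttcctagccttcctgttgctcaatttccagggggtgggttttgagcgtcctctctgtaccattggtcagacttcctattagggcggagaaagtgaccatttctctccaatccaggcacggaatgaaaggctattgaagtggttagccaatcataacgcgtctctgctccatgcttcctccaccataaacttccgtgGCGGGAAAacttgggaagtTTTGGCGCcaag
Mcm5: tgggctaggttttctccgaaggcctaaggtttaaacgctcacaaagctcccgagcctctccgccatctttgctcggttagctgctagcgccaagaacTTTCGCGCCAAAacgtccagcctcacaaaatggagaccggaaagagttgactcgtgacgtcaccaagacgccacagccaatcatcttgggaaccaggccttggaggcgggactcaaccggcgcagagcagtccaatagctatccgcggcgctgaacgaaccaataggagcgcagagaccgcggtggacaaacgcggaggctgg
Mcm6: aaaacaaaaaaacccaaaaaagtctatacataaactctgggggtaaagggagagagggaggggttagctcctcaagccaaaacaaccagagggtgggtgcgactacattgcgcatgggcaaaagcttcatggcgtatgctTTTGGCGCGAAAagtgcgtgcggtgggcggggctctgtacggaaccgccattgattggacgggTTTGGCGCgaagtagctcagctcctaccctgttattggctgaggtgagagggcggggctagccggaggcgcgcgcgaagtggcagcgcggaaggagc
Mcm7: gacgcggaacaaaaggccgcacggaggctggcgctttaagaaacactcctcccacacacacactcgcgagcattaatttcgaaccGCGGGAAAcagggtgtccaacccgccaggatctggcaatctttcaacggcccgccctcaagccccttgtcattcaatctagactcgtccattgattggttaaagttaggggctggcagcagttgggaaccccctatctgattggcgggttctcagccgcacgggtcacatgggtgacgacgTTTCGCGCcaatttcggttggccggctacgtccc
Rfc3: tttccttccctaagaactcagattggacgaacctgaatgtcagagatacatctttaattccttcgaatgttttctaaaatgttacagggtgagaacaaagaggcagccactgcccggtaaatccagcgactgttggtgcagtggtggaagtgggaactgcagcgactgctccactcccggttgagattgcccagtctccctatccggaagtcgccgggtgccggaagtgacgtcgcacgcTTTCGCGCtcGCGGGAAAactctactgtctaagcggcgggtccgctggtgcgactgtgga
Pcna: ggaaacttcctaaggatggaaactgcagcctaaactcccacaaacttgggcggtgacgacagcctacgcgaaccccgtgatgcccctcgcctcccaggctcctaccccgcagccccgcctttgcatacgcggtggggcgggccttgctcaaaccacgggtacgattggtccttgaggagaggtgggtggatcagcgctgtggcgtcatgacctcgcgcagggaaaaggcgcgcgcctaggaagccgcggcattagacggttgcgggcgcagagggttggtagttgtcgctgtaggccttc

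An E2F word was present in 16 of the 41 genes with a window (39.0%). The share was 2.61% of all 27025 genes with a window (704 genes) and 4.64% of the 9514 protein-coding genes with a signal of at least 10. The matches were in Orc1, Cdc6 and Cdt1 of the licensing genes, in Mcm3, Mcm5, Mcm6 and Mcm7 of the helicase, in Gins3, in Pola1, Pold1, Pold3 and Pole2 of the polymerases, and in Rfc3, Lig1, Uhrf1 and Dnmt1. None of the 4 nucleotide supply genes held one. In Mcm5 and in Mcm6, a pair of words on opposite strands overlapped to form a longer run, TTTCGCGCCAAA and TTTGGCGCGAAA respectively, so the 23 matches lay at 21 places. TTTGGCGC and TTTCGCGC gave 8 matches each, TTTCCCGC gave 7 and TTTGCCGC gave 0. Positions were counted from the annotated start (position 0) to the first base of a match. They ran from -219 to 39 with a median of -27, and 14 of 23 were within 100 bases of the start. The window reaches only 250 bases before and 50 after the start, so much of it lies that close, and clustering was not tested.

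The CCAAT box, a common promoter element bound by the factor NF-Y, was searched in the same way on both strands. It was found in 26 of 41 genes (63.4%) against 41.1% of all genes, including all 5 MCM genes with a window, and 10 genes held both motifs. Of 34 other replication genes with a window, 10 held an E2F word (29.4%) and 17 a CCAAT box (50%). Of 21 mitosis genes, 2 held an E2F word (9.52%) and 18 a CCAAT box (85.7%). The share with an E2F word was thus higher in the replication genes and the share with a CCAAT box higher in the mitosis genes; neither difference was tested. The members' windows had a median GC content of 61.3% and a median of 24 CpG, beside 60.3% and 20 in the protein-coding genes with a signal of at least 10. These are letter matches, with no measurement of binding.

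**Figure D1:**
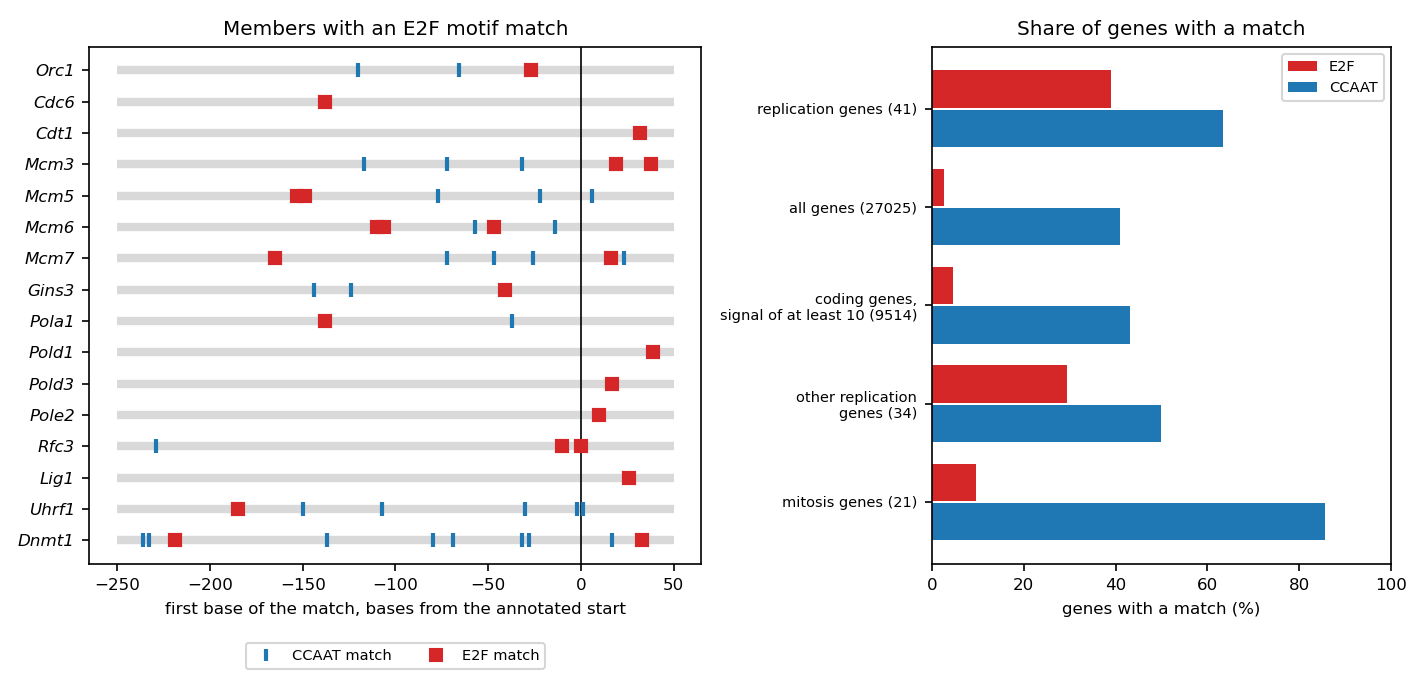
Left, positions of E2F words (red squares) and CCAAT boxes (blue ticks) in the promoters of the 16 replication genes with an E2F word, in bases from the annotated start; right, the percentage of genes with each motif in 5 gene sets, with the number of genes in brackets. E2F words were present in 39.0% of the replication genes and 2.61% of all genes, and CCAAT boxes in 63.4% and 41.1%.

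All 50 genes were detected in the sorted cells. Every gene had a signal of at least 10, as did 62.0% of all genes listed, and 47 of 50 had at least 100 (71.6% of the genes at 10 or more). Their signals ran from 40.8 (Orc1) to 2239 (Dnmt1), with a median of 403 and quartiles of 203 and 923. Summed, the 50 genes held 0.122% of the total signal. For comparison between genes, the signal was divided by the mean length of the annotated coding transcripts of the gene and is given per kb. The median over the 50 genes was 224 per kb, at the 54.7th percentile of the 14286 genes with a signal of at least 10 and a known length, whose median was 181. Above that median lay 31 of the 50 genes with this length, 33 with the longest coding transcript as length and 28 with the union of exons. Because the RNA came from bulk cells, fewer cycling cells and less RNA per cell cannot be told apart at these levels.

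The depth set a small counting error. The lowest values of the table were whole-read combinations of exactly 8 library scales (1500 of 1500 values below 0.443), matching the 8 samples. Size factors read from these scales were 0.796 to 1.05 in 7 libraries and 1.91 in the remaining one, which could not be tied to a group. The counting error of a gene's mean was at most 0.837% (Dnmt1) to 6.20% (Orc1) of its value; it covers the sampling of reads only, and the spread between mice is unknown.

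Levels per kb ordered the classes with the helicase at the top. The class median was 390 per kb for MCM2-7 (66.4th percentile), 324 for nucleotide supply (62.5th), 265 for single-strand binding and lagging strand (58.3rd), 263 for clamp and loader (58.2nd), 241 for chromatin genes (56.3rd), 174 for licensing (49.1st), 130 for polymerases (43.6th) and 110 for helicase activation (40.3rd). MCM2-7 remained first and polymerases and helicase activation remained the lowest pair under all 3 definitions of length, while the classes between them changed places. With the mean of log2 levels in place of the median, licensing became the lowest class at 92.6 per kb, below helicase activation at 115 and polymerases at 144, and MCM2-7 was still first at 459. Single genes spanned a wider range than classes, from 13.5 per kb (Orc1) to 1258 (Pcna). When the 50 genes were ordered by level, 17 of the 49 neighbouring pairs were separated by more than the 95% counting interval of their ratio and 32 were not. These intervals do not cover the choice of length, which moved several ratios further than counting error did.

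**Figure D2:**
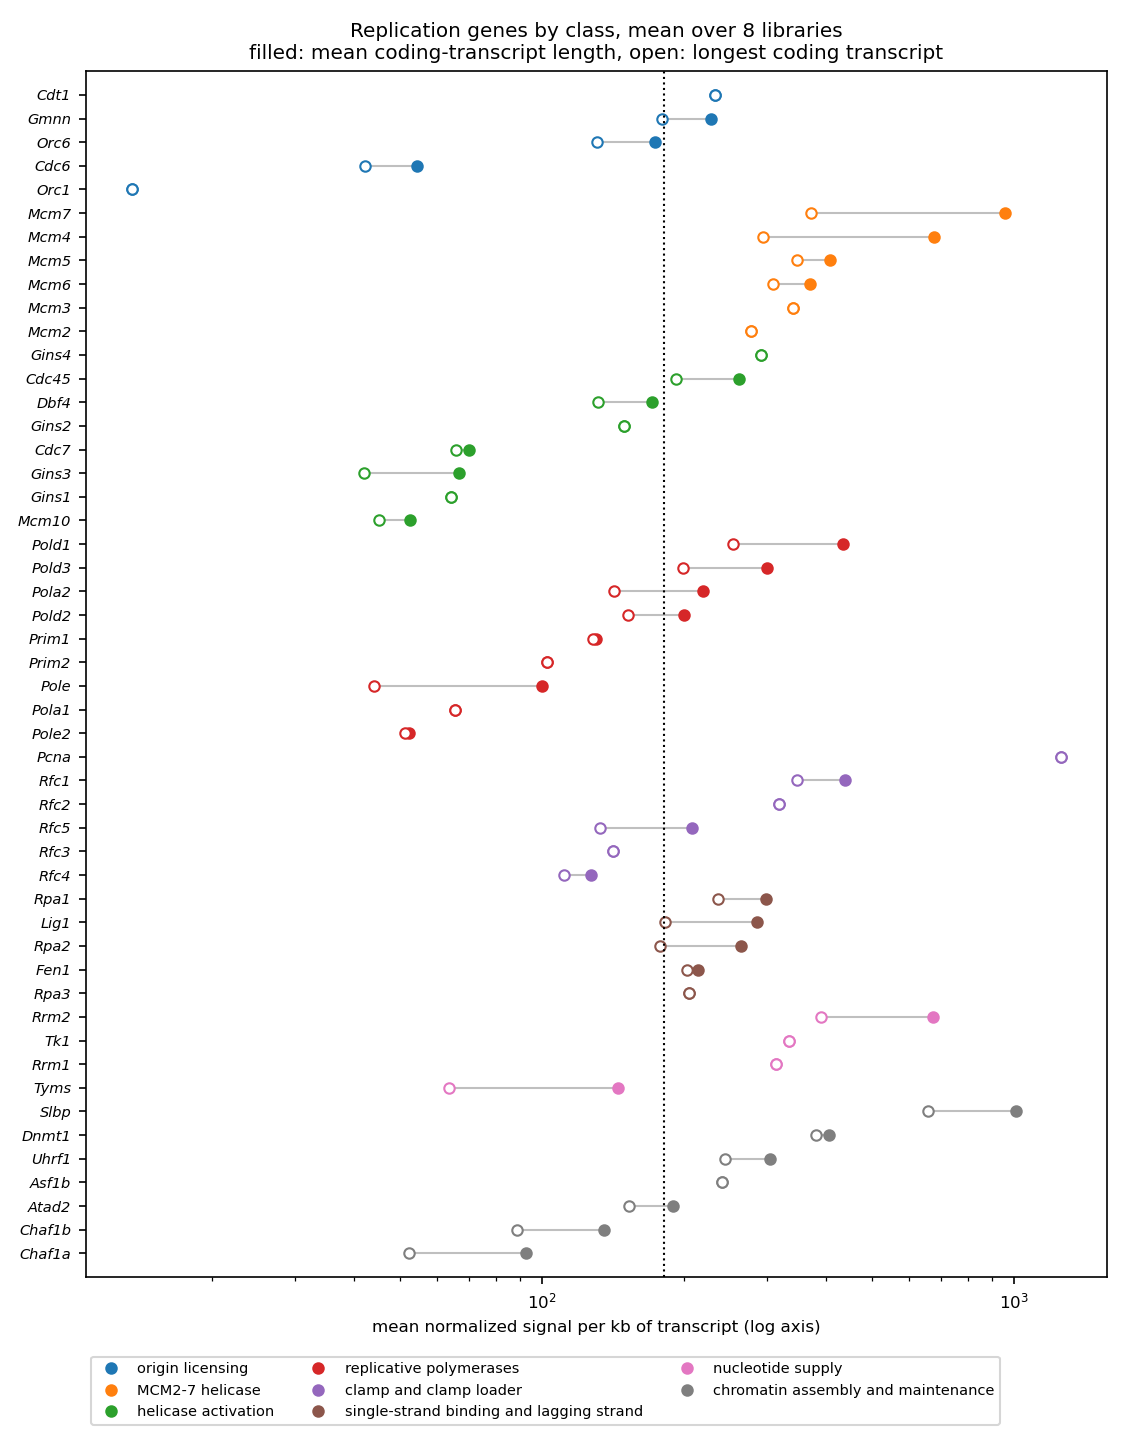
Signal per kb of transcript (log axis) of the 50 replication genes, coloured by class, with length taken as the mean of coding transcripts (filled) or the longest coding transcript (open); the dotted line is the median of all genes with a signal of at least 10 (181 per kb). All 6 MCM genes lay above that line, Pcna was highest at 1258 per kb and Orc1 lowest at 13.5.

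Origin licensing genes ranged from the lowest of all members to the middle of the range. Orc1, the largest subunit of the origin recognition complex and the one whose level cycles, had a signal of 40.8 and 13.5 per kb (10.4th percentile). It lies on chromosome 4 from 108579423 to 108614833 (mm10) and has 17 exons in its single coding transcript. The other subunits stood higher: Orc6, a member, was at 174 per kb, a ratio to Orc1 of 12.8 (95% counting interval 11.2 to 14.7), which was 9.67 with the longest transcript and 6.62 with the union of exons. Both genes share exon bases with a gene on the opposite strand, Orc1 10.8% with Gm12743 (signal 11.8) and Orc6 6.93% with Vps35 (signal 3498). Orc4, a core subunit and not a member, was at 505 per kb, with a ratio to Orc1 of 37.3 (32.9 to 42.3) that was 12.4 with the longest transcript and 7.78 with the union. Cdc6, an ATPase that helps to load the helicase, was at 54.3 per kb, near the bottom of the members. Cdt1, its partner in loading, was at 233 per kb, and geminin (Gmnn), the inhibitor that sequesters Cdt1 after licensing, at 228; the Cdt1 to Gmnn ratio was 1.02 (0.960 to 1.09), so on this length the pair could not be separated by counting error; with the longest transcript Cdt1 was still at 233 per kb and Gmnn at 180, a ratio with a counting interval of 1.22 to 1.38.

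The 6 subunits of the MCM2-7 ring, which assemble in equal numbers, had closely placed signals. Signals were 938 for Mcm2, 1031 for Mcm3, 1055 for Mcm4, 1177 for Mcm5, 1346 for Mcm6 and 1104 for Mcm7. The 6 signals spanned a ratio of 1.44 before any division by length. Per kb of mean coding transcript they spanned 3.46, with Mcm7 at 961 and Mcm4 at 678, because both genes have short annotated isoforms; per kb of the longest coding transcript they spanned 1.34, from 278 (Mcm2) to 373 (Mcm7). All 6 lay above the median of all genes. Exons of Mcm7 also overlap Ap4m1 and Cops6 on the other strand, by 7.25% and 1.45% of its exon bases.

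Genes that activate the loaded helicase were lower. Mcm10, which is needed to start unwinding, was at 52.7 per kb and Cdc45, a part of the active helicase, at 262. The 4 GINS subunits, which also form an equimolar complex, did not lie close together: Gins4 was at 291 per kb, Gins2 at 150, Gins3 at 66.7 and Gins1 at 64.1. Their span was 4.54, and 6.94 with the longest transcripts, wider than that of the helicase ring under each of the 3 lengths. Gins2 shares 67.3% of its exon bases with Gse1 on the opposite strand (signal 2000), and whether counting used strand was not stated, so its value is uncertain. Of the kinase that fires origins, the regulatory subunit Dbf4 was at 171 per kb and the catalytic subunit Cdc7 at 70.1, a ratio of 2.44 (2.28 to 2.62) that turned to 1.36 in favour of Cdc7 with the union of exons.

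The polymerase subunits ranged from 52.4 to 435 per kb. In polymerase alpha-primase, which lays the primers, the catalytic subunit Pola1 was at 65.6 per kb and its partner Pola2 at 220. The primase subunits Prim1 and Prim2 were at 130 and 103. The gap between Pola1 and Pola2 depended on the length, since their signals were 351 and 344. Per kb they were at 65.6 and 142 with the longest transcript and at 39.8 and 41.5 with the union of exons. The 4 signals of the complex spanned a ratio of 1.73. Pola1 spans 327 kb of chromosome X in 37 exons, the widest gene of the 50. In polymerase delta, the lagging-strand enzyme, catalytic Pold1 was at 435, Pold2 at 200 and Pold3 at 300. In polymerase epsilon, the leading-strand enzyme, catalytic Pole was at 100 and Pole2 at 52.4. Pold1 was 4.34 times Pole per kb (4.13 to 4.57) in this ordering of the catalytic subunits. With the longest transcript Pole fell to 44.0 and Pole2 stood slightly above it at 51.4.

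The sliding clamp was the most abundant member per length. Pcna, the ring that holds polymerases on DNA, had a signal of 1909 and 1258 per kb (87.1st percentile); its 6 exons lie on chromosome 2 from 132249162 to 132253314 (mm10). A processed copy, Pcna-ps2, was listed separately at 28.7, and reads shared between the copies could be split in counting. The loader subunits of replication factor C fell into a high and a low set. Rfc1, the large subunit, and Rfc2 were at 440 and 318 per kb, whereas Rfc5, Rfc3 and Rfc4 were at 208, 141 and 127. Pcna was 3.96 times Rfc2 (3.86 to 4.07). Shares of 15.1%, 12.7% and 10.7% of the exon bases of Rfc2, Rfc4 and Rfc5 lie over Lat2, Eif4a2 and Wsb2, and Eif4a2 had a signal of 7775 against 142 for Rfc4.

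Genes of single-strand binding and the lagging strand spanned a ratio of 1.46, the narrowest of the 8 classes with this length. The subunits of RPA, the trimer that coats single-stranded DNA, were at 299 (Rpa1), 265 (Rpa2) and 205 (Rpa3) per kb, although their signals of 1199, 322 and 138 spanned 8.72. Dividing by length thus brought this trimer together. The ligase Lig1, which seals Okazaki fragments, was at 286 and the flap nuclease Fen1, which trims them, at 215; 78.8% of the exon bases of Fen1 are shared with an antisense transcript, Gm10143, of signal 11.2.

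Nucleotide supply held both high and low genes. Ribonucleotide reductase makes deoxynucleotides, and its small subunit Rrm2, which is made in S phase, was at 675 per kb beside 313 for the large subunit Rrm1. The ratio of 2.16 (2.08 to 2.23) became 1.25 with the longest transcripts. Rrm2b, the small subunit used outside S phase and not a member, was at 784 per kb, and at 238 with the longest transcript, where Rrm2 was at 392. Thymidine kinase Tk1 was at 335 and thymidylate synthase Tyms at 145 per kb. Against this supply stood Samhd1, which degrades deoxynucleotides and is known for blocking retroviruses in myeloid cells: at 10116 per kb (98.5th percentile) it was 32.3 times Rrm1 (31.6 to 33.1), 15.0 times Rrm2 (14.6 to 15.4) and 69.9 times Tyms (66.2 to 73.8). With the longest transcripts these ratios were 23.1, 18.4 and 113, and with the union 27.3, 9.99 and 93.7.

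Chromatin genes included Slbp, which binds the stem-loop of histone mRNAs, at 1012 per kb (84.3rd percentile). It ranked 2 of the 50 genes with this length and the longest transcript, but 13 with the union of exons, at 207 per kb. Dnmt1, the maintenance DNA methyltransferase, had the largest signal of all 50 and stood at 407 per kb, and Uhrf1, which brings it to newly copied DNA, at 305, a ratio of 1.33 (1.29 to 1.37). Asf1b, a histone H3-H4 chaperone, was at 241 and Atad2, a bromodomain ATPase, at 190. The subunits of CAF-1, which deposits histones at the fork, were lowest, with Chaf1b at 136 and Chaf1a at 92.4. Chaf1a shares 52.5% of its exon bases with Ubxn6 on the opposite strand. Ubxn6 had a signal of 1029 against 289 for Chaf1a, so the value of Chaf1a is uncertain.

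**Figure D3:**
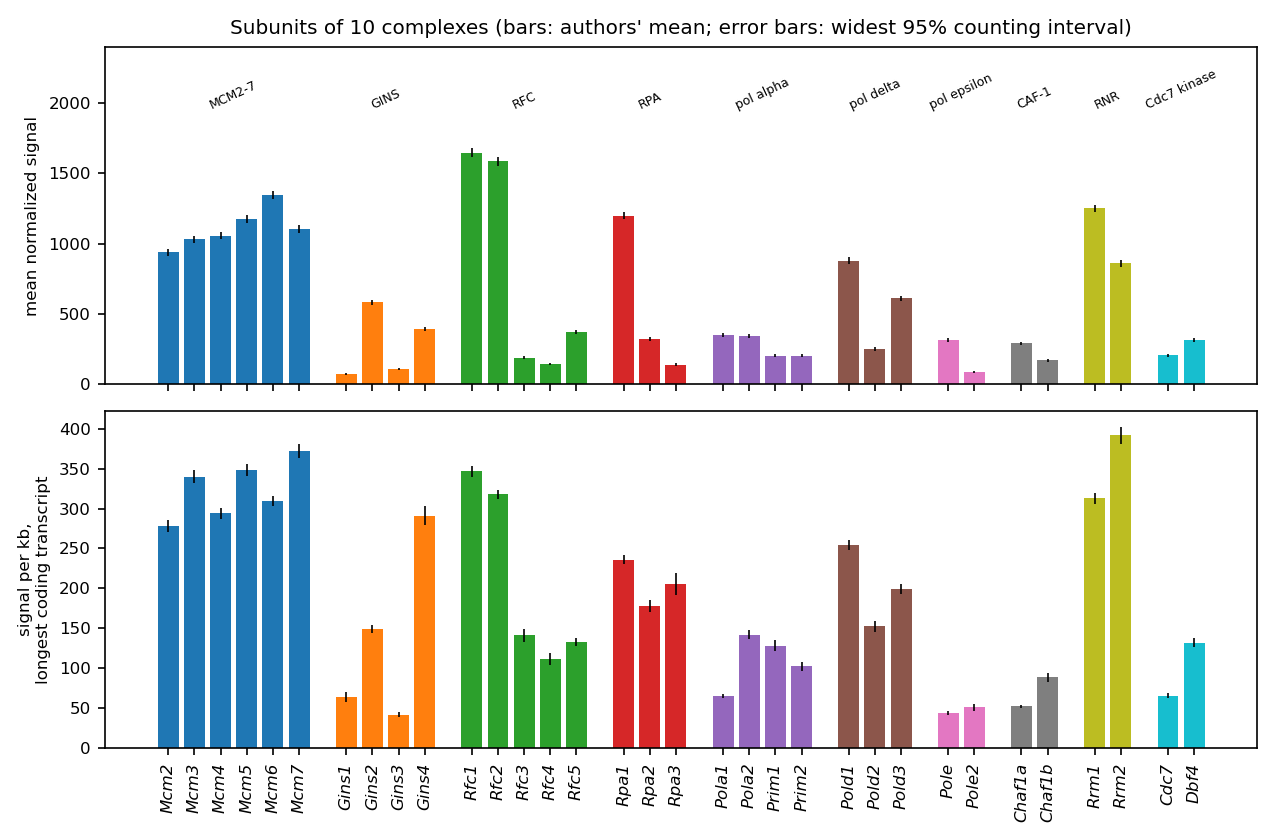
Subunits of 10 replication complexes: the signal (top) and the signal per kb of the longest coding transcript (bottom), as bars of the authors' mean with the widest 95% counting interval. MCM2-7 subunits spanned a ratio of 1.34 per kb on this length and GINS subunits 6.94.

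Other genes of the pathway stood at levels like those of the members. All 42 had a signal of at least 10, and their median was 198 per kb (52.0th percentile), with 22 above the median of all genes. After Samhd1 came Chtf8, a subunit of an alternative clamp loader, at 1335 per kb and Pold4, the smallest subunit of polymerase delta, at 1316. The lowest were Recql4 (16.4), a helicase used in initiation, Mcm8 (17.3), an MCM relative that acts in repair, and Dctd (22.3), which deaminates dCMP. The 25 mitosis genes had a median of 205 per kb (52.7th percentile). Cenpa, the centromeric histone, was at 1225 per kb, the proliferation marker Mki67 at 965 and the topoisomerase Top2a at 496. With the longest transcript Cenpa was at 608 and with the union of exons at 152, while Mki67 was at 510 with both. The checkpoint kinases Ttk and Bub1 and the condensin subunit Ncapg were at 54.5, 69.8 and 105. Replication and mitosis lists thus overlapped over most of their range, and Mki67 was at 0.768 of the level of Pcna (0.752 to 0.784), or 0.406 with the longest transcripts and 0.641 with the union.

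The markers of the sorted cells were present, and so were those of other cells. Monocyte markers Ly6c2 and Csf1r had signals of 14413 and 22160, and neutrophil markers Ly6g and S100a9 of 7853 and 725556, the latter the highest in the table; Lyz2, the host of the Cre, was at 104132. Genes of granulocyte precursors were also present, with Mpo at 4075, Elane at 1692 and the granule genes Ltf and Camp at 207629 and 72958. Of other cell types, the B cell gene Cd79a was at 5923, the plasma cell gene Jchain at 10848, the macrophage gene Vcam1 at 20903, the globin gene Hbb-bs at 8580 and the T cell gene Cd3e at 288, whereas Klf1, a transcription factor of erythroid precursors, was at 55.1. Lists were uneven within themselves. The monocyte genes Ccr2 and Cx3cr1 were at 2504 and 706 (78.1st and 50.6th percentiles per kb), and the plasma cell gene Sdc1 at 193 (37.8th). Every marker gene of the 9 lists that is reported here had a signal of at least 10, as did 62.0% of all genes listed. Which of these cells held the replication transcripts was not tested. Lmna itself, the targeted gene, was at 79.5 over all libraries, and its level by genotype was not analysed here.

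**Figure D4:**
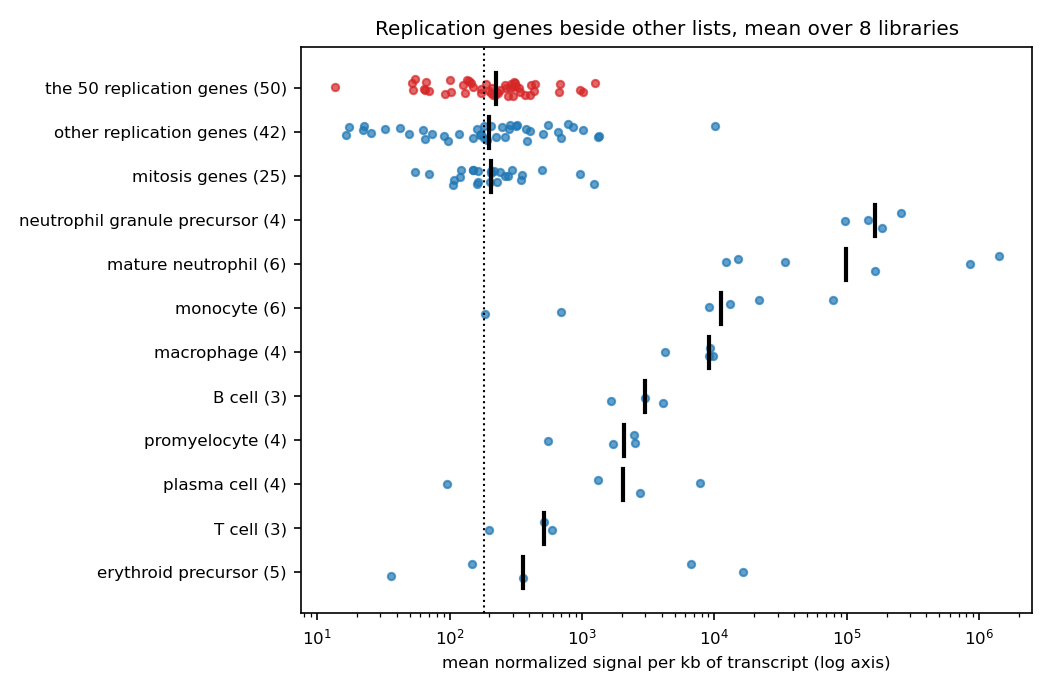
Signal per kb of transcript (log axis) of the 50 replication genes (red) beside 42 other replication genes, 25 mitosis genes and 9 cell type marker lists (blue); points are genes, black bars list medians and the dotted line the median of all genes with a signal of at least 10. Medians of the first 3 lists were 224, 198 and 205 per kb, and Samhd1 stands apart at 10116.

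Levels of members with and without an E2F word were set side by side, and the difference was not tested. Genes with an E2F word had a median of 293 per kb (16 genes, 13.5 to 961) and those without 215 (25 genes, 52.7 to 1258), and the ranges overlapped over most of their width. Orc1, the lowest member, carries a word at position -27, and Pcna, the highest, has none in its window.

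Position in the genome was uneven. Chromosome 5 held 10 members (20% of 50, beside 6.26% of protein-coding genes with a signal of at least 10): Mcm7, Cdc7, Dbf4, Pole, Rfc1, Rfc2, Rfc3, Rfc5, Tyms and Slbp, so that 4 of the 5 clamp loader genes are there. Chromosome 8 held 7 (14%, beside 5.55%): Orc6, Cdt1, Mcm5, Gins2, Gins3, Gins4 and Asf1b. A divergent neighbour starting within 1000 bases upstream was found for 8 members (16%, beside 10.4% of protein-coding genes at that signal). Their partners were unequal in signal: Mcm4 and Prkdc, 466 bases apart, had signals of 1055 and 619, and Dbf4 and Slc25a40, 134 bases apart, of 317 and 112. Orc1, with a signal of 40.8, starts 87 bases from Prpf38a, with 486, so the lowest member lies beside a well expressed gene.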

How the data were processed

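Total RNA from 8 sorted spleen samples was sequenced. Per the labels and the study's methods, the authors trimmed reads with cutadapt 1.14, aligned them with STAR 2.5.2b to mm10, estimated gene counts with RSEM 1.3.0 and normalized them with DESeq2 1.20.0. The deposited signal is the authors' mean normalized count per gene over all libraries; no per-sample values were used. Of the same table, 6 columns hold the authors' own comparison (log2 fold change, its standard error, test statistic, p, adjusted p and signed fold change) and were not used, so the edgeR test planned for per-sample counts was not run. The cell marker label reads CD11b+Ly6C+ for every sample, and subsets were taken from sample titles. Library preparation followed standard Illumina protocols, and strandedness is not given in the sources used here.

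Signals were divided by transcript length from GENCODE M21 (GRCm38), matched for 23004 of 23084 identifiers. The authors estimated counts with an earlier GENCODE release, so counts and lengths do not share 1 annotation. For 28 repeated symbols the highest row was used. Percentiles are among genes with a signal of at least 10. Library scales were sought as values of 1 read whose whole-number combinations gave the lowest signals (tolerance 5e-09). No upper limit was set on their number, and the step was tested on simulated data. The counting error bound is the square root of the signal times the largest value of 1 read, and ratios carry 95% intervals (normal quantile 1.96). Promoters came from RefSeq. All 50 members are named; of the other replication and mitosis genes, the 3 highest and 3 lowest are named by rule, and further genes were chosen after their values were seen. Of the marker lists, 2 genes are not reported here. Members and lists were chosen with earlier results of these data known. Alternatives changed the length, the minimum signal, the class summary, the strand and the promoter background. Python 3.11.15, pandas 2.3.3 and numpy 2.4.6 were used.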

Additional observations from a re-analysis of the deposited data

How the results depend on the processing

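No value has replicates, so an alternative counted as a move where it changed a value by over 1.5 times; of 57 alternatives over 25 results, 33 stayed within that and 24 did not. Most moves came from the length. With the union of exons the median per kb became 119 for the 50 genes, 77.7 for licensing, 47.6 for helicase activation, 41.5 for polymerases, 172 for clamp and loader, 135 for single-strand binding and lagging strand, 103 for nucleotide supply, 86.4 for the other replication genes and 129 for the mitosis genes; the median of all genes moves with this length too. Subunit spans with the union became 2.19 for MCM2-7, 7.46 for GINS, 5.31 for RFC, 1.54 for polymerase alpha-primase, 1.37 for delta, 1.08 for epsilon and 1.36 for the Cdc7 kinase. With the longest coding transcript they became 1.34 for MCM2-7, 6.94 for GINS, 2.17 for alpha-primase, 1.17 for epsilon and 1.25 for ribonucleotide reductase. Among complexes with 2 listed subunits, the order reversed in epsilon under both lengths and in the Cdc7 kinase under the union. Larger complexes changed order too. The ratio of Rpa3 to Rpa2 was 0.776 with the mean length, 1.15 with the longest transcript and 1.12 with the union. The lowest GINS subunit became Gins3 under both lengths. Under the union, Mcm5 became the highest of MCM2-7, Rfc3 the lowest of RFC, and Prim1 and Prim2 the highest and lowest of alpha-primase. The mean of log2 levels put licensing at 92.6 per kb, the lowest class. On the forward strand only, 22.0% of members and 1.38% of all genes held an E2F word, a ratio of 15.9. With both strands, the members' share was 15.0 times that of all genes and 8.42 times that of protein-coding genes with a signal of at least 10. No paired analysis was possible because the signal is 1 mean over all samples; leaving out replicates was not run for the same reason, and the spread between mice limits every level in a way these data do not show.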
